A study of Schizosaccharomyces pombe with 18 samples.

Results

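The comparison described here is the change in mRNA level of wild-type (WT) fission yeast, *Schizosaccharomyces pombe*, between log phase and early stationary phase. Its samples were the 3 arrays labelled WT at an optical density (OD600) of 10 and the 3 arrays labelled WT at an optical density of 0.5, which are 6 of the 18 arrays of the series. Its features were all probe sets that the array annotation names as *S. pombe* genes, 2937 of the 10928 probe sets on an Affymetrix yeast array that holds probe sets of both *S. pombe* and *S. cerevisiae*. The study put forced expression of the ribosomal protein genes *rpl32-1* and *rpl32-2* beside WT cells in both phases, so every WT sample is also a control for another strain. WT cells were of the *h-* strain SP-Q01, which needs leucine (*leu1-32*), and carried an empty vector, pESP3 in the labels and pREP3X in the study's methods. They grew in the minimal medium EMM2, and the labels number the arrays of a phase as biological replicates 1 to 3.

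When a culture of fission yeast runs out of nutrients, the cells stop dividing and enter a resting state in which they can survive for long times. Glucose keeps the cAMP-dependent protein kinase active and represses the genes for use of other carbon sources, whereas nutrient stress acts through the stress-activated MAP kinase Sty1, the transcription factor Atf1 and the TOR kinases. Nitrogen starvation in the presence of a partner also opens the way to mating and meiosis, and in cells that do not mate, to quiescence.

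All levels are log2 values that were quantile-normalized over these 2937 probe sets, and a change is the early stationary mean minus the log phase mean, so a change of 1 on this scale is 2-fold. Levels are not compared between probe sets. A probe set was called when its adjusted *p* in limma was under 0.05 and its change was at least 2-fold. The RNA came from whole cultures and the values are relative to the other genes on an array, so fewer cells that express a gene and less of its RNA per cell cannot be told apart, nor can a change in total RNA be seen. The level of actin, *act1*, was 13.39, 13.35 and 13.32 in log phase against 13.58, 13.40 and 12.94 in early stationary phase, and the groups overlapped. Of 8 probe sets for markers of M cells (the *h-* type), those of *mfm1*, *mfm2*, *mam1* and *mam2* were above the array background on all 6 WT arrays, while those of *mfm3* and *sxa2* were not above it on 1 early stationary array. Of 4 for P cell markers, *sxa1* and *map2* were above it on all 6. Those of *map1* and *map3* were also not above it on 1 early stationary array. The marker probe sets alone therefore do not tell the mating types apart.

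One WT array stood apart before any comparison. On early stationary array 3, 21.7% of the *S. pombe* probe sets lay at or below the array's background, the 95th percentile of its *S. cerevisiae* probe sets, against 0.85% to 2.35% on the other 5 WT arrays. Its distribution of deposited values was shared with no other WT array. The 6 WT arrays fell into 3 such sets: log array 1 with early stationary array 1, log arrays 2 and 3 with early stationary array 2, and early stationary array 3 without a log phase partner in WT. Among the 267 probe sets called lower, 113 had at least 1 early stationary array at background, and among the 286 called higher, 25 did. Values without that array stand beside some of the results it moved, and a result without such a note may also have moved. For example, without it the change of *liz1* was -1.52 and that of *gas4* was -1.18, against -1.91 and -1.61 with it. Of the falls named below, *aat1*, *amt1*, *asf1*, *cdc18*, *gas4*, *hem4*, *liz1*, *met9*, *omh5*, *pan6*, *rhp18*, *rsc58* and *trm6* were also not above background on that array.

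In WT cells, 286 of 2937 probe sets (9.74%) were called higher in early stationary phase and 267 (9.09%) were called lower, 18.8% in all. A rise of at least 4-fold was seen at 69 probe sets and a fall of that size at 31, and a rise of at least 8-fold at 29 and a fall of that size at 7, so the largest changes were rises. For 547 of the 553 called probe sets the 3 arrays of one phase did not overlap those of the other, against 57.3% of all probe sets. Within the 2 sets of arrays that held both phases, all 553 changed in the direction of the call, 456 by at least 2-fold in the first set and 349 in the second. The calls were made with these same arrays, so the shared direction is a description and not a separate test. Without early stationary array 3, 242 of the rises and 210 of the falls were still called, and 388 of the 553 calls held whichever WT array was left out. The median change of all 2937 probe sets was -0.07, and it was -0.11 with each array centred on its median, -0.23 with quantile normalization over all probe sets of the array and -0.65 in the values as deposited. The scaling also set the split of the calls, with 215 higher and 316 lower under quantile normalization over all probe sets and only 24 higher and 29 lower in the values as deposited, where all 553 kept the direction of the call.

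**Figure D1:**
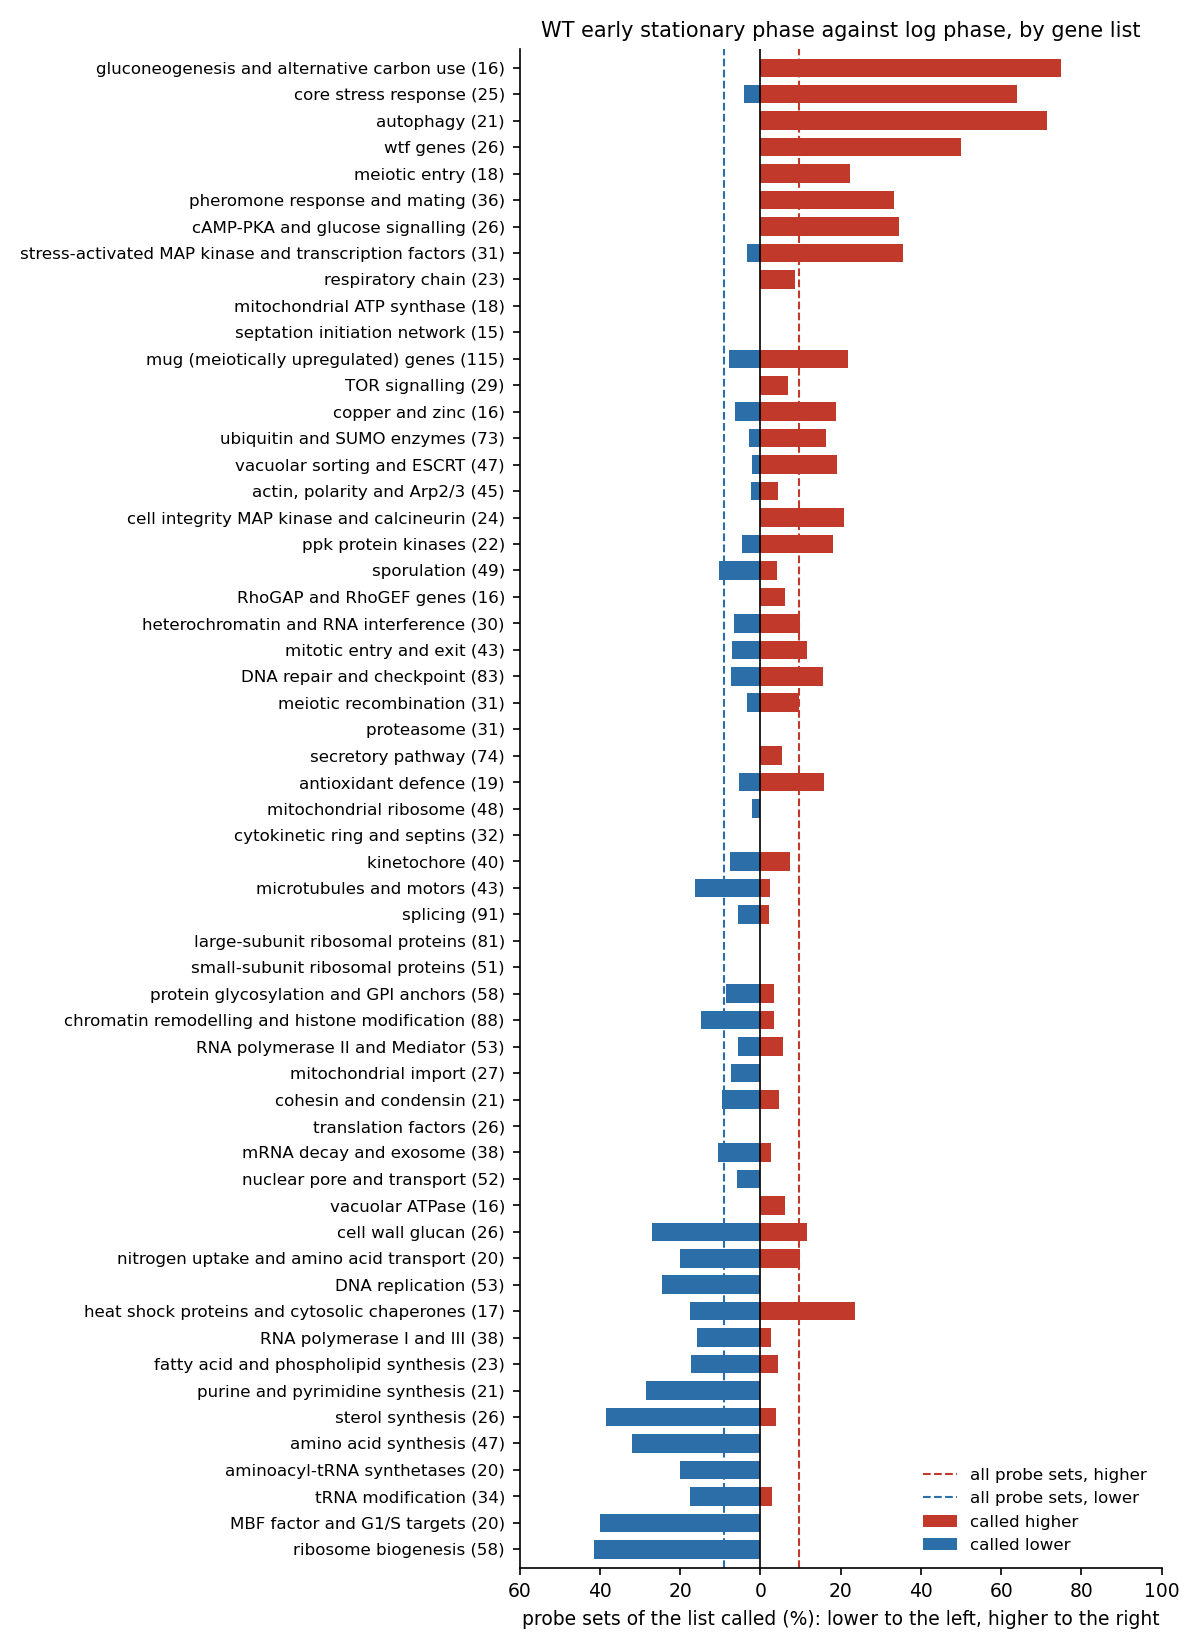
Share of the probe sets of each gene list that were called higher (red, to the right) or lower (blue, to the left) in WT early stationary phase, in percent, for the 57 lists with at least 15 probe sets (their number in parentheses), ordered by median change. The dashed lines are the shares of all 2937 probe sets, 9.74% higher and 9.09% lower; lists of carbon use, stress and autophagy reach far past the first and ribosome biogenesis far past the second.

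**Figure D2:**
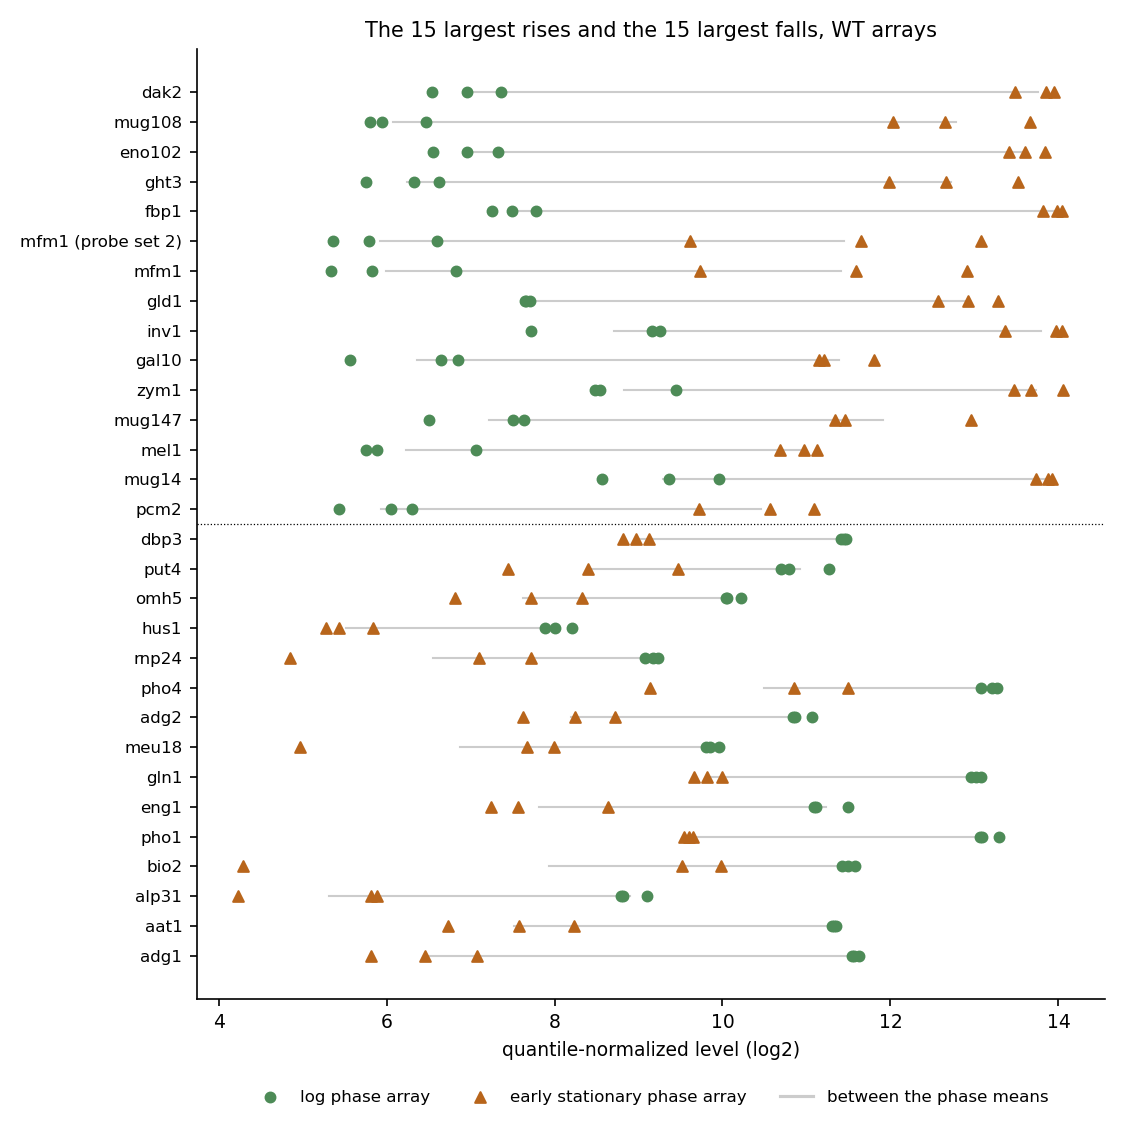
Quantile-normalized log2 level on each of the 6 WT arrays for the 15 called genes with the largest rise (above the dotted line) and the 15 with the largest fall (below it), circles for log phase and triangles for early stationary phase. All were chosen without overlap between the phases, and for *bio2*, *meu18* and *rnp24* 1 early stationary array lies far below the others.

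Genes for carbon sources other than glucose were among those that changed most. Of 16 probe sets in a list of gluconeogenesis and alternative carbon use, 12 were called higher and 0 lower, with a median change of 2.55. The dihydroxyacetone kinase gene *dak2* stood at 6.54, 6.95 and 7.36 in log phase and at 13.85, 13.48 and 13.94 in early stationary phase. Every early stationary array was far above every log phase array, and the change of 6.81 (SE 0.73, 112-fold, adjusted *p* = 1.52e-05) was the largest of all probe sets. Its relative *dak1* also rose, by 1.66 (SE 0.27), from 11.60, 11.998 and 12.09 to 13.56, 13.76 and 13.35. Both kinases act after glycerol dehydrogenase, the product of *gld1*, whose change was 5.25 (SE 0.50), and together these steps bring glycerol into glycolysis.

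Secreted and intracellular enzymes that release or convert sugars rose with them. The invertase gene *inv1*, whose product splits sucrose outside the cell, had levels of 7.72, 9.25 and 9.15 in log phase against 13.97, 13.37 and 14.04 in early stationary phase (change 5.08, SE 0.66, adjusted *p* = 4.75e-05). The alpha-galactosidase gene *mel1* went from 5.89, 5.75 and 7.07 to 11.13, 10.68 and 10.97 (change 4.69, SE 0.72). All 3 galactose genes on the array were called: *gal10*, for the UDP-glucose epimerase, changed by 5.03 (SE 0.63), *gal1*, for galactokinase, by 2.63 (SE 0.42) and *gal7*, for the uridylyltransferase, by 2.47 (SE 0.40). For *gal10* the levels were 5.57, 6.65 and 6.86 in log phase against 11.80, 11.21 and 11.15 in early stationary phase, with no overlap. Malic enzyme, *mae2*, rose from 11.94, 12.20 and 12.25 to 13.68, 13.54 and 13.74 (change 1.53, SE 0.13), a smaller change with little spread.

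Of 8 hexose transporter probe sets, *ght3* (change 6.48) and *ght4* (1.89, SE 0.54) were called higher and 0 lower. The call of *ght4* was lost without early stationary array 3 or without log array 1. The gene for the main high-affinity glucose transporter, *ght5*, had an adjusted *p* of 0.00467 but a change of 0.67 (SE 0.17), under the 2-fold threshold. The glycolysis list had a highest change of 0.22 and held neither *eno102* nor *adh4*, whose rises are given below. In that list 0 of 12 probe sets were called higher and 1 lower, with a median change of -0.19 that was 0.17 when each array was centred on its median. The 1 call was *adh1*, for the main alcohol dehydrogenase of fermentation, at 13.76, 13.76 and 13.77 in log phase against 12.41, 10.16 and 12.18 in early stationary phase (change -2.18, SE 0.56, adjusted *p* = 0.00613). Early stationary array 2 was the lowest, and without it the change was -1.47. *adh4*, for another alcohol dehydrogenase, rose from 12.03, 12.04 and 12.04 to 13.47, 13.85 and 12.54 (change 1.24, SE 0.28), a call that was lost without the same array.

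Pairs of related genes are shown side by side. The enolase gene *eno102* had 7.33, 6.55 and 6.95 in log phase against 13.41, 13.84 and 13.60 in early stationary phase (change 6.67, SE 1.03), whereas *eno101*, for the enolase of glycolysis, had 14.37, 14.29 and 14.25 and then 14.12, 14.12 and 13.99 (change -0.23, SE 0.10, adjusted *p* = 0.0657, and 0.20 with each array centred on its median). For the Hsp70 genes, *ssa1* rose from 9.17, 9.99 and 10.01 to 12.48, 12.67 and 13.21 (change 3.06, SE 0.60) and *ssa2* had a change of -0.59 (SE 0.18), which did not reach 2-fold. The ribosomal protein paralogs that gave the study its subject were not called in WT cells: *rpl32-1* had a difference of -0.04 (SE 0.51) and *rpl32-2* of -0.17 (SE 1.47), and with each array centred on its median these were 0.46 and 0.09. These errors are pooled over the 6 groups of the fit, among them the strains that overexpress each gene. On the WT arrays *rpl32-2* was at 13.73, 13.78 and 13.78 in log phase against 13.50, 13.58 and 13.70 in early stationary phase, and *rpl32-1* at 13.54, 13.59 and 14.37 and at 13.48, 13.61 and 14.29, near the top of the scale (14.37), where a difference can be compressed.

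**Figure D3:**
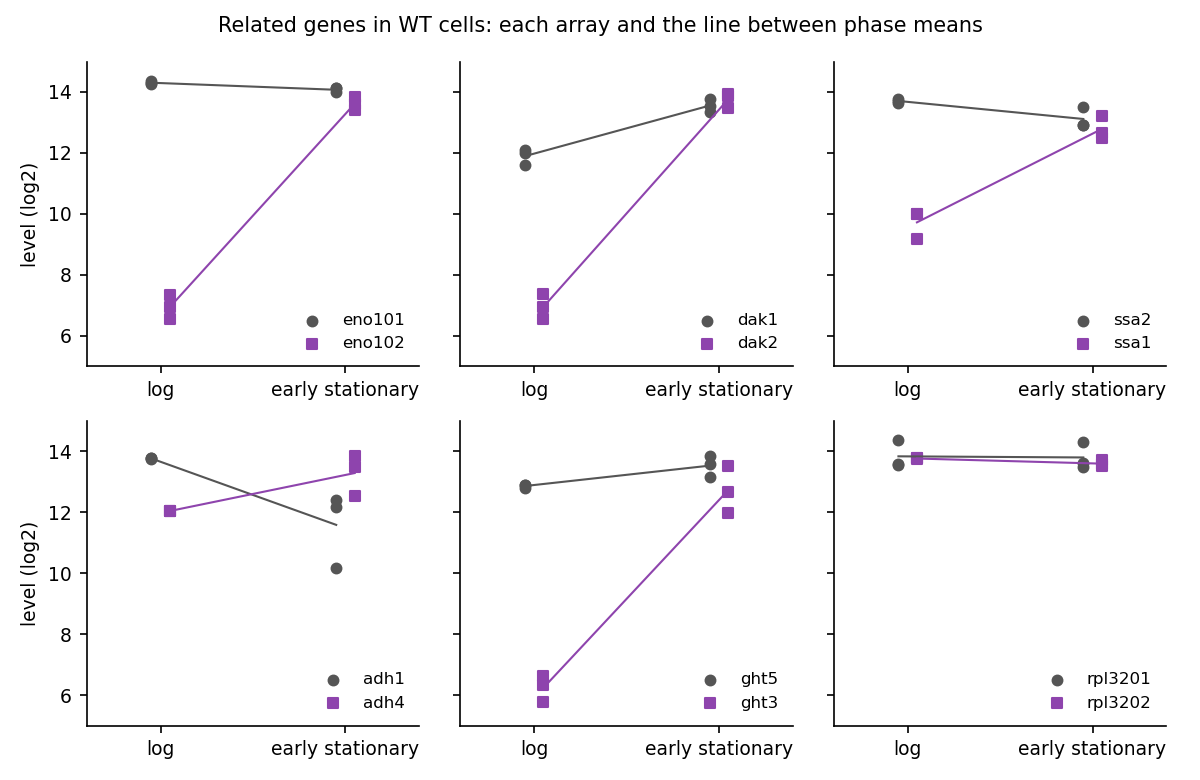
Log2 level of pairs of related genes on each of the 3 WT arrays of a phase (points) with a line between the phase means; levels of 2 probe sets on the same panel cannot be set against each other, only their slopes. The lines of *eno102*, *dak2*, *ssa1* and *ght3* climb steeply, those of *adh1* and *adh4* slope in opposite directions, and those of both *rpl32* genes are nearly flat.

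Changes of mitochondrial genes were smaller. Of 10 citric acid cycle probe sets 4 were called higher and 0 lower (median change 0.65). Both subunits of isocitrate dehydrogenase rose: *idh1* from 10.91, 11.13 and 11.13 to 12.99, 12.81 and 12.82 (change 1.81, SE 0.22) and *idh2* from 11.16, 11.14 and 11.16 to 13.05, 12.79 and 12.78 (change 1.72, SE 0.16, adjusted *p* = 5.96e-06). The next enzyme of the cycle was represented by *kgd2*, with a change of 1.43 (SE 0.19), and citrate synthase, *cit1*, by 1.05 (SE 0.17), whose call was lost without early stationary array 1. In the respiratory chain 22 of 23 probe sets had a positive change and 19 had an adjusted *p* under 0.05, but only *cox13*, for a subunit of cytochrome c oxidase, and *cox10*, for a step of heme A synthesis, reached 2-fold. The median was 0.54, and *cox13* went from 11.49, 11.15 and 11.17 to 12.52, 12.29 and 12.57 (change 1.19, SE 0.16), while the call of *cox10* did not hold when any of 5 of the 6 WT arrays was left out. The mitochondrial ATP synthase list was alike, with a median of 0.51 and 12 of 18 probe sets higher at an adjusted *p* under 0.05, none of them called at 2-fold. Of 48 probe sets of the mitochondrial ribosome 0 were called higher and 1 lower, with a median of -0.07, equal to that of all probe sets. Heme synthesis had 2 of 8 probe sets called lower, *hem3* (change -1.36, SE 0.30) and *hem4*, the latter not without early stationary array 3.

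Most calls among genes that take up and assimilate nitrogen were falls. The gene for glutamine synthetase, *gln1*, which fixes ammonium, and the amino acid transporter gene *aat1* had changes of -3.19 and -3.82. The ammonium transporter gene *amt1* fell from 11.23, 10.49 and 10.61 to 9.47, 8.85 and 8.05 (change -1.98, SE 0.34, adjusted *p* = 3.93e-04), and the proline transporter gene *put4* from 11.27, 10.70 and 10.79 to 8.39, 7.45 and 9.47 (change -2.48, SE 0.49). In both the lowest log phase array was above the highest early stationary array. In the same list of 20 probe sets, 4 in all were called lower and 2 higher (median -0.42). The 2 were *per1*, for a plasma membrane amino acid permease, at 11.49, 10.98 and 11.001 and then 12.36, 12.27 and 13.41 (change 1.52, SE 0.41), and *isp4*, for an oligopeptide transporter, whose phases overlapped and whose call was lost without any of 4 WT arrays.

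Among genes for the synthesis of amino acids and nucleotides, every call was a fall. Of 47 amino acid synthesis probe sets 15 were called lower and 0 higher (31.9% and 0.0%, median -0.64), and of 21 for purines and pyrimidines 6 were called lower and 0 higher (median -0.58). The arginine route gave 4 of the 15: *arg1* fell from 12.78, 12.98 and 12.96 to 11.60, 11.63 and 11.42 (change -1.36, SE 0.16), *arg3*, for ornithine carbamoyltransferase, from 11.35, 11.39 and 11.29 to 9.62, 9.79 and 10.11 (change -1.50, SE 0.19), and *arg4* and *arg5*, for the subunits of carbamoyl phosphate synthase, changed by -1.44 and -1.55. The histidine route gave another 4, *his1* (-1.77), *his3* (-1.58), *his4* (-1.06) and *his5* (-1.55), of which *his4* was not called without early stationary array 3. For nucleotides, *ura3*, *ura4* and *ura5* of the route through orotate were called: *ura5*, for orotate phosphoribosyltransferase, went from 11.97, 11.88 and 11.92 to 10.42, 10.73 and 9.85 (change -1.59, SE 0.21) and *ura4*, for the decarboxylase after it, from 12.16, 12.07 and 12.12 to 10.91, 11.22 and 10.96 (change -1.08, SE 0.13). In the opposite direction, *urg1*, a gene known for its induction by uracil, rose from 8.32, 8.31 and 8.35 to 10.31, 9.99 and 10.22 (change 1.84, SE 0.39).

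One-carbon metabolism, which feeds purine and methionine synthesis, was among the lists with the lowest medians, -1.38 over 9 probe sets, with 5 called lower and 0 higher and all 9 below 0. All 3 genes of the glycine cleavage system on the array fell. *gcv1* went from 11.998, 11.73 and 11.56 to 10.37, 9.95 and 10.10 (change -1.62, SE 0.28, adjusted *p* = 3.83e-04), *gcv2* changed by -1.38 (SE 0.31) and *gcv3* by -1.38 (SE 0.18). Methylenetetrahydrofolate reductase, *met9*, fell from 10.60, 10.72 and 10.62 to 8.26, 8.89 and 8.32 (change -2.16, SE 0.22, adjusted *p* = 1.30e-05) and the folate enzyme gene *ade9* changed by -1.68 (SE 0.30). Serine hydroxymethyltransferase, *shm2*, had a change of -0.68 (SE 0.18), under 2-fold.

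Falls were also called at genes for 3 vitamins, biotin, pantothenate and thiamine. *bio2*, for biotin synthase, was at 11.58, 11.49 and 11.42 in log phase and at 9.98, 9.52 and 4.29 in early stationary phase (change -3.56, SE 0.998). The last value is that of early stationary array 3, where the probe set was not above background, and without it the change was -1.72. The biotin transporter gene *vht1* fell on all 3 arrays, from 13.03, 13.09 and 12.98 to 11.12, 10.64 and 10.62 (change -2.24, SE 0.21, adjusted *p* = 5.96e-06). Of the pantothenate genes, *liz1*, for the transporter, fell from 10.35, 10.94 and 10.66 to 8.74, 9.41 and 8.06 (change -1.91, SE 0.32) and *pan6*, for the last step of pantothenate synthesis, changed by -1.39 (SE 0.21). In the thiamine list of 11 probe sets 2 were called lower and 0 higher: *thi4*, for thiamine phosphate synthesis, from 12.66, 12.69 and 12.91 to 11.29, 10.99 and 11.52 (change -1.49, SE 0.24), and *pho4*, for a phosphatase that is repressed by thiamine. *pho4* stood at 13.20, 13.07 and 13.27 and then at 10.85, 11.50 and 9.13 (change -2.69, SE 0.40; -1.99 without early stationary array 3). The thiamine-repressed gene *nmt1*, whose promoter drives expression from vectors of this kind, had 14.20, 14.20 and 14.18 and then 14.25, 14.29 and 14.18, a difference of 0.04 (SE 0.09) at the top of the scale, which was -0.05 in the values as deposited.

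The acid phosphatase gene *pho1*, which cells use to free phosphate outside the wall, was at 13.07, 13.08 and 13.29 in log phase and at 9.54, 9.60 and 9.65 in early stationary phase (change -3.55, SE 0.46, 11.7-fold, adjusted *p* = 5.12e-05). The 3 arrays of each phase lay close together. The identifier of this probe set now stands for a noncoding RNA that overlaps *pho1*, so the transcripts cannot be told apart here. Of the 5 probe sets of the phosphate list, only *pho1* and *pho4* were called.

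Among the genes of protein synthesis, the calls lay with the factors that build ribosomes, and none with the ribosomal proteins. Of 81 large-subunit and 51 small-subunit ribosomal protein probe sets, 0 were called in either direction, while 19 and 10 were lower at an adjusted *p* under 0.05 and 0 higher. Their median log phase levels were 13.53 and 13.46, near the top of the scale, where a difference can be compressed. Their changes ran from -0.85 to 0.11 and from -0.65 to 0.25 with a median of -0.16 in both lists, and the sign of that median depended on the scaling, since it was 0.06 and 0.02 with each array centred on its median. Translation factors also had 0 of 26 called (median -0.29). Ribosome biogenesis had 24 of 58 called lower (41.4%), 0 higher, a median of -0.96, and 57 of 58 changes below 0. The RNA helicase gene *dbp3* fell most, from 11.47, 11.41 and 11.45 to 8.82, 9.12 and 8.97 (change -2.47, SE 0.20, adjusted *p* = 2.37e-06), with little spread in either phase. *mra1*, for an rRNA methyltransferase, went from 11.72, 11.33 and 11.35 to 9.76, 9.90 and 9.28 (change -1.82, SE 0.23), and *rrs1*, for an assembly factor of the large subunit, from 11.03, 10.98 and 11.04 to 9.15, 9.41 and 9.73 (change -1.59, SE 0.13). *gar1*, for a protein of the snoRNPs that place pseudouridines, changed by -1.39 (SE 0.20), *dim1*, for an rRNA dimethylase, by -1.36 (SE 0.15), and *prp43*, for a helicase used in both splicing and ribosome assembly, by -2.13 (SE 0.23).

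The polymerases that transcribe rRNA and tRNA genes had 6 of 38 probe sets called lower and 1 higher (median -0.56). Subunits of RNA polymerase I led: *rpa49* fell from 10.86, 11.13 and 11.15 to 8.71, 9.31 and 7.81 (change -2.44, SE 0.35) and *rpa34* from 11.19, 10.90 and 10.91 to 9.44, 8.61 and 8.13 (change -2.27, SE 0.36). *ker1*, for another small subunit of this enzyme, fell from 10.45, 10.10 and 9.97 to 8.23, 8.06 and 8.45 (change -1.92, SE 0.29). In all 3 genes early stationary array 3 was not above background, and the changes without it were -1.98, -1.92 and -1.95. The subunit shared by all 3 polymerases, *rpb8*, changed by -1.82 (SE 0.23). The 1 call in the other direction was *maf1*, for a repressor of RNA polymerase III, with a change of 1.03 (SE 0.34) that was not called without early stationary array 3 (0.70) or without any 1 of the log phase arrays. tRNA modification had 6 of 34 called lower and 1 higher (median -0.73), among them both subunits of the tRNA adenosine methyltransferase, *trm6* (-1.31, SE 0.14) and *trm61* (-1.18, SE 0.20). Without early stationary array 2, 11 of this list were called lower, and with each array centred on its median 10. Of 20 aminoacyl-tRNA synthetase probe sets 17 were lower at an adjusted *p* under 0.05, but only 4 reached 2-fold, with *wrs1*, for tryptophan, at -1.40 (SE 0.18) and *nrs1*, for asparagine, at -1.21 (SE 0.12).

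**Figure D4:**
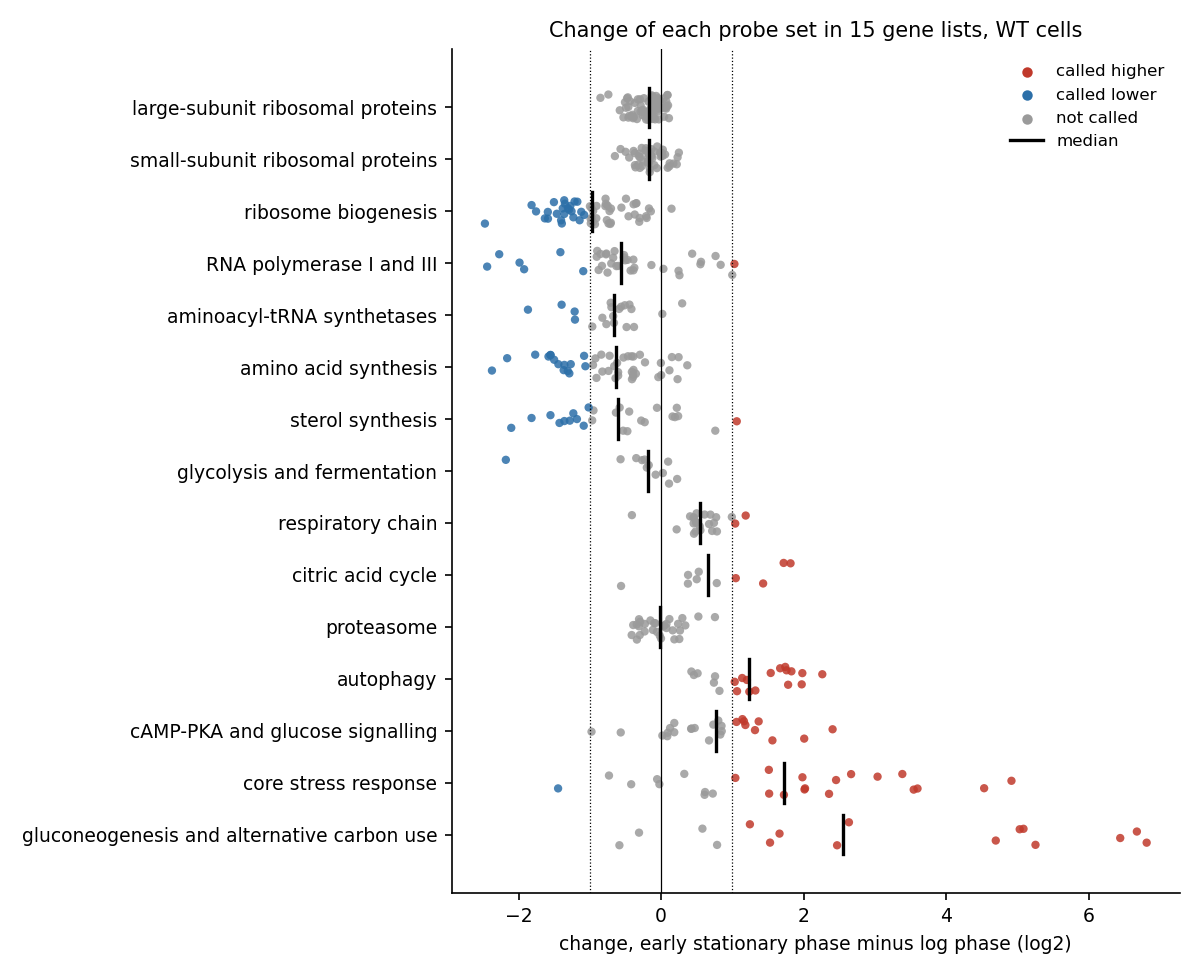
Change of each probe set (points; log2, early stationary minus log phase, WT) in 15 gene lists, with the median of the list as a bar, called probe sets in red or blue and the 2-fold thresholds as dotted lines. Ribosomal proteins and the proteasome lie within the thresholds, ribosome biogenesis is shifted to the left and autophagy, core stress and alternative carbon use to the right.

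Most calls among lipid and wall genes were falls. Sterol synthesis had 10 of 26 probe sets called lower and 1 higher (median -0.61). Falls spanned the route, from *hmg1*, for HMG-CoA reductase (change -1.23, SE 0.16), to *erg6*, for the sterol methyltransferase, which was at 12.53, 12.78 and 12.68 in log phase and at 10.40, 11.29 and 10.83 in early stationary phase (change -1.82, SE 0.26), and *erg4*, for the last reductase (change -1.55, SE 0.24). *erg27* had the largest change, -2.10 (SE 0.31), with early stationary array 3 not above background. The higher one was *sre1*, for the sterol-regulated transcription factor, with a change of 1.06 (SE 0.27), not called without early stationary array 2. In fatty acid and phospholipid synthesis 4 of 23 were called lower and 1 higher, and that count was 9 lower without early stationary array 1, 7 without early stationary array 2 and 8 without log array 1. *cho2*, for a phosphatidylethanolamine methyltransferase, fell from 12.06, 12.17 and 12.10 to 10.35, 11.04 and 10.29 (change -1.55, SE 0.24), and *fas2*, for a subunit of fatty acid synthase, lay just under the threshold at -0.99 (SE 0.19).

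Of 26 probe sets for cell wall glucan 7 were called lower and 3 higher (median -0.41). The glucanosyltransferase genes *gas1* and *gas4*, whose products lengthen the glucan chains of the wall, changed by -1.62 (SE 0.29) and -1.61 (SE 0.29). *gas1* was at 12.73, 12.68 and 12.75 in log phase and at 10.96, 11.74 and 10.61 in early stationary phase. The glucan glucosidase gene *exg3* went the other way, from 9.62, 9.62 and 9.69 to 11.01, 11.21 and 11.89 (change 1.73, SE 0.26). The mannosyltransferase gene *omh5* fell from 10.22, 10.05 and 10.04 to 7.72, 8.32 and 6.81 (change -2.48, SE 0.29). All 5 probe sets of the cell separation list were called lower (median -2.73), with changes from -5.13 to -1.43. For 4 of them the arrays of the phases did not overlap, against 57.3% of all probe sets and 547 of the 553 called ones. With each array centred on its median 4 were called.

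Of the genes for breakdown of cell contents, those of autophagy and the vacuole had many calls and those of the proteasome none. Autophagy had 15 of 21 probe sets called higher (71.4%), 0 lower, all 21 changes above 0 and a median of 1.24. The calls covered successive steps. Of the kinase complex that starts the process, *atg13* rose from 8.92, 8.74 and 8.96 to 11.11, 10.74 and 10.68 (change 1.97, SE 0.23, adjusted *p* = 2.29e-05) and *atg17* from 9.70, 9.99 and 10.01 to 11.48, 11.66 and 11.17 (change 1.54, SE 0.17), while *atg1*, the kinase itself, changed by 1.06 (SE 0.15) and was not called without early stationary array 1. Of the phosphoinositide-binding proteins, *atg1801* had the largest change of the list, from 8.70, 8.50 and 8.48 to 10.75, 11.04 and 10.67 (change 2.26, SE 0.25), and *atg1802* changed by 1.74 (SE 0.24). *atg8*, for the ubiquitin-like protein of the autophagosome membrane, rose from 9.46, 9.59 and 9.51 to 10.74, 11.01 and 11.82 (change 1.67, SE 0.27), and the protease that processes it, *atg4*, changed by 1.98 (SE 0.29). The vacuolar amino acid exporter gene *atg22* changed by 1.76 (SE 0.26).

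Of 5 vacuolar protease probe sets 3 were called higher, all 5 at an adjusted *p* under 0.05 (median 1.17). The subtilase gene *isp6* rose from 11.54, 11.68 and 11.72 to 13.62, 13.58 and 13.19 (change 1.81, SE 0.14, adjusted *p* = 2.37e-06), and carboxypeptidase Y, *cpy1*, had a change of 0.79 (SE 0.13), under 2-fold. Vacuolar sorting had 9 of 47 called higher and 1 lower (median 0.32), led by the sorting nexin gene *mvp1*, from 8.13, 8.37 and 8.23 to 10.06, 10.26 and 10.49 (change 2.03, SE 0.17), and with the vacuolar Rab gene *ypt7* at 1.33 (SE 0.25). In the vacuolar ATPase list of 16 probe sets 1 was called higher, the assembly factor gene *rav1* (change 1.13, SE 0.13), and the median was -0.39. Among ubiquitin and SUMO enzymes 12 of 73 were called higher and 2 lower (median 0.33), with the F-box gene *pof1* at 8.66, 8.67 and 8.78 and then 11.78, 11.46 and 10.96 (change 2.70, SE 0.23) and the ubiquitin ligase gene *pub3* at a change of 2.04 (SE 0.25). None of 31 proteasome probe sets was called, with changes from -0.41 to 0.75 and a median of -0.02, which was 0.11 above the median of all probe sets in the values as deposited.

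All calls among the genes of glucose signalling were rises. Of 26 probe sets in the list of cAMP-PKA and glucose signalling 9 were called higher and 0 lower (median 0.77), and without early stationary array 3 the count was 6. Genes of both subunits of the kinase rose: *cgs1*, the regulatory subunit that holds it inactive, from 8.05, 8.70 and 8.60 to 10.37, 10.73 and 11.46 (change 2.40, SE 0.32, adjusted *p* = 5.93e-05), and *pka1*, the catalytic subunit, from 9.26, 9.72 and 9.67 to 10.95, 10.95 and 11.43 (change 1.56, SE 0.24). Upstream, *git5*, for the beta subunit of the G protein, rose from 8.12, 8.50 and 8.40 to 10.05, 10.33 and 10.66 (change 2.01, SE 0.29). Downstream, *rst2*, for the transcription factor that the kinase holds in check and that activates *fbp1*, rose from 10.90, 10.99 and 10.95 to 12.22, 12.22 and 12.49 (change 1.37, SE 0.19). The calls of *cgs2*, *git3* and *git11* were lost without early stationary array 3, where all 3 were highest. TOR signalling had 2 of 29 called higher and 0 lower, 6.9% higher against 9.74% of all probe sets. The 2 were *gad8*, for a target kinase of the second TOR complex, and *ste20*, for a subunit of that complex. *gad8* rose from 9.91, 9.66 and 9.64 to 11.03, 10.81 and 11.19 (change 1.27, SE 0.15), and *ste20* changed by 1.12 (SE 0.20).

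In the list of the stress-activated MAP kinase pathway and its transcription factors 11 of 31 probe sets were called higher and 1 lower (median 0.65). *atf1* rose from 8.54, 9.13 and 8.92 to 11.36, 11.13 and 11.69 (change 2.53, SE 0.27, adjusted *p* = 1.42e-05). The phosphorelay gene *mpr1* rose from 6.60, 7.18 and 7.04 to 9.21, 9.14 and 9.45 (change 2.33, SE 0.37). Negative regulators of the pathway were among the calls as well, with the MAP kinase phosphatase genes *pyp1* (change 1.06, SE 0.26, not called without log array 1) and *pyp2* (2.45, SE 0.65) and the phosphatase gene *ptc1* (1.79, SE 0.37). The downstream kinase gene *srk1* was also called higher (2.01, SE 0.37). For *pyp2* the log phase values of 8.07, 9.39 and 9.22 and the early stationary values of 10.68, 10.48 and 12.87 spread widely but did not overlap.

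The core stress list had 16 of 25 probe sets called higher and 1 lower (median 1.72). The zinc metallothionein gene *zym1* rose from 8.48, 8.55 and 9.44 to 13.68, 13.47 and 14.06 (change 4.91, SE 0.91, adjusted *p* = 6.28e-04). The small heat shock protein gene *hsp16* rose from 9.91, 10.61 and 11.20 to 14.20, 14.09 and 14.20 (change 3.59, SE 0.60), and *hsp9* reached 14.37, the top of the normalized scale, on all 3 early stationary arrays, so its change of 1.04 is limited by the scale. The transcription factor gene *rsv2* rose from 7.98, 8.42 and 8.24 to 11.97, 11.11 and 12.18 (change 3.54, SE 0.37). Of trehalose metabolism, the synthase gene *tps1* (1.51, SE 0.33) and the trehalase gene *ntp1* (2.35, SE 0.41) were both called higher, as were catalase, *ctt1* (1.98, SE 0.44), and the glutathione enzymes *gst3* (2.01, SE 0.25) and *gpx1* (1.72, SE 0.25). The wider antioxidant list had only these 3 of 19 called higher and *trx2*, for thioredoxin, lower (-1.19, SE 0.26), a call lost without early stationary array 3. Cytosolic chaperones split, with 4 of 17 called higher and 3 lower (median -0.55). *hsp16*, *ssa1*, the DnaJ gene *psi1* (1.80, SE 0.29) and the heat shock factor gene *hsf1* (1.25, SE 0.24) rose, while the DnaJ genes *mas5* and *zuo1* fell, *mas5* from 12.30, 12.14 and 12.15 to 10.41, 10.62 and 10.71 (change -1.62, SE 0.20) and *zuo1*, whose product acts on the ribosome, with a change of -1.35 (SE 0.16). Of genes in no list, *lsd90* rose from 9.01, 10.18 and 10.32 to 13.75, 13.66 and 14.14 (change 4.01, SE 0.68) and *egt1*, for ergothioneine synthesis, by 2.25 (SE 0.43).

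Calls among the genes of mating and of entry into meiosis were rises. Of 36 probe sets for pheromone response and mating 12 were called higher and 0 lower (median 0.85), but 6 without early stationary array 2 and 7 without log array 2. With each array centred on its median 5 were called higher and 1 lower, and with quantile normalization over all probe sets 6 and 1. Of the 8 M cell marker probe sets 5 were called higher, but 2 or 3 without any 1 of the WT arrays other than early stationary array 3, 6 without that array, and 2 with each array centred on its median. The marker *sxa2* had a difference of -0.36 (SE 0.30), not called. Early stationary array 2 was the highest for *mfm1* and *mam2*. The pheromone precursor gene *mfm1* had 6.82, 5.33 and 5.83 in log phase against 11.59, 12.92 and 9.73 in early stationary phase (change 5.42, SE 1.12, adjusted *p* = 0.00145), and its second probe set gave 5.52. The receptor gene *mam2* went from 7.59, 7.42 and 7.42 to 9.81, 12.06 and 8.80 (change 2.75, SE 0.99), and its call did not hold without any 1 of 5 of the WT arrays. *ste7*, which acts at the start of mating, was more stable, at 9.70, 9.01 and 8.90 and then 11.58, 12.24 and 10.05 (change 2.09, SE 0.56, called without each array in turn). Of 4 P cell marker probe sets 0 were called. In the list of meiotic entry 4 of 18 were called higher and 0 lower. Of these, *mei2*, for the RNA-binding protein that starts meiosis, rose from 9.03, 8.33 and 9.10 to 11.85, 12.13 and 10.999 (change 2.84, SE 0.41, adjusted *p* = 1.02e-04).

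Lists of later meiosis had few calls. Meiotic recombination had 3 of 31 probe sets called higher, close to the share of all probe sets, and 1 lower, a fall that was not called with each array centred on its median or without early stationary array 3. Sporulation had 2 of 49 higher and 5 lower. Single genes still changed strongly: *rec6*, for a protein needed for meiotic DNA breaks, went from 8.17, 7.92 and 7.97 to 10.59, 10.43 and 11.54 (change 2.83, SE 0.49). *meu18* fell from 9.80, 9.95 and 9.85 to 7.67, 7.997 and 4.97 (change -2.99, SE 0.61; -1.97 without early stationary array 3, which was not above background). Of 115 probe sets of *mug* genes, which were named for a rise in meiosis, 25 were called higher and 9 lower. Their median of 0.35 depended on the scaling and was -0.31 with quantile normalization over all probe sets. *mug108* stood at 5.81, 5.95 and 6.47 and then at 12.64, 12.03 and 13.66 (change 6.70, SE 1.21, 104-fold), *mug147* changed by 4.70 (SE 0.78), *mug14* by 4.55 (SE 0.50) and *mug143* by 3.999 (SE 0.38). For *mug143* the arrays of a phase lay close together, at 7.95, 8.68 and 8.65 and then 12.44, 12.39 and 12.45. The *wtf* genes, a family of meiotic drivers and their antidotes, had 13 of 26 probe sets called higher (50%) and 0 lower, with a median of 0.99, and 7 with quantile normalization over all probe sets. The family is made of near-identical copies, so its probe sets cannot assign a signal to 1 copy. *wtf17* went from 5.79, 5.94 and 5.82 to 7.89, 8.20 and 8.29 (change 2.28, SE 0.32), 1 early stationary array not above background.

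Among cell cycle genes, all calls in DNA replication were falls. Of 53 DNA replication probe sets 13 were called lower and 0 higher (median -0.44), but 8 without early stationary array 3. *mcm4*, for a subunit of the replicative helicase, fell from 10.14, 10.08 and 10.10 to 8.60, 8.64 and 8.83 (change -1.41, SE 0.19) and the origin recognition gene *orc5* from 10.08, 10.05 and 10.10 to 8.88, 9.06 and 9.19 (change -1.03, SE 0.13), the latter not called without early stationary array 1. *cdc18*, which loads the helicase, changed by -2.01 (SE 0.46). Of genes that drive mitosis, 5 of 43 were called higher and 3 lower (median 0.01). These shares, 11.6% and 7.0%, were near those of all probe sets, 9.74% and 9.09%, so only single genes are described. *mcs6*, for the kinase that activates cyclin-dependent kinases, rose from 9.41, 9.26 and 9.14 to 10.77, 10.80 and 11.41 (change 1.72, SE 0.34), and *wee1*, for the kinase that holds Cdc2 inactive, from 7.96, 7.99 and 7.98 to 9.42, 9.29 and 9.55 (change 1.44, SE 0.25). The cyclin gene *puc1* changed by 1.65 (SE 0.25) and *suc1*, for a protein that binds Cdc2, by -1.21 (SE 0.24). Of 43 probe sets for microtubules and motors 7 were called lower and 1 higher. Both alpha-tubulin genes fell, *atb2* from 11.29, 10.97 and 10.81 to 9.68, 8.90 and 9.32 (change -1.73, SE 0.36) and *nda2* from 12.08, 11.70 and 11.66 to 10.88, 9.94 and 10.02 (change -1.53, SE 0.37). *alp31*, for a tubulin folding cofactor, fell from 8.81, 9.10 and 8.80 to 5.82, 5.89 and 4.23 (change -3.59, SE 0.52; -3.07 without early stationary array 3, where it was not above background).

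DNA repair and checkpoint genes went both ways, with 13 of 83 probe sets called higher, 8 without early stationary array 3, and 6 lower. The balance turned with the scaling, to 6 higher and 9 lower with each array centred on its median and 7 higher and 9 lower with quantile normalization over all probe sets. Both 3-methyladenine DNA glycosylase genes, whose products cut out alkylated bases, rose. *mag2* went from 6.29, 6.30 and 6.49 to 9.81, 9.89 and 10.16 (change 3.60, SE 0.31, 12.1-fold, adjusted *p* = 2.37e-06) and *mag1* from 7.70, 8.25 and 8.32 to 9.49, 10.09 and 10.05 (change 1.79, SE 0.29). *rev7*, for a subunit of the mutagenic polymerase zeta, rose from 8.36, 8.27 and 8.46 to 10.37, 10.21 and 10.56 (change 2.02, SE 0.33). In none of these 3 genes did the phases overlap. The ubiquitin ligase gene *rhp18*, which acts on PCNA at stalled forks, fell from 9.93, 9.90 and 9.90 to 8.48, 8.48 and 7.71 (change -1.69, SE 0.25).

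Chromatin modifiers had 13 of 88 probe sets called lower and 3 higher (median -0.23). *rsc58*, for a subunit of a nucleosome remodeller, fell from 9.23, 9.43 and 9.26 to 7.58, 7.72 and 7.49 (change -1.71, SE 0.19), the histone chaperone gene *asf1* changed by -1.47 (SE 0.17) and *pht1*, for a histone H2A variant, by -1.31 (SE 0.28). The Argonaute gene *ago1*, of the RNA interference machinery, rose from 8.74, 8.15 and 8.17 to 10.14, 9.28 and 10.12 (change 1.49, SE 0.25). Of 30 heterochromatin and RNA interference probe sets 3 were called higher (10%) and 2 lower (6.7%). These shares were near or under those of all probe sets, 9.74% and 9.09%. With each array centred on its median, or with quantile normalization over all probe sets, 1 was called higher and 1 lower. Among general transcription factors *tbp1*, for the TATA-binding protein, rose from 11.79, 11.73 and 11.82 to 13.35, 13.21 and 13.03 (change 1.41, SE 0.17). In the list of RNA polymerase II and Mediator, 3 of 53 probe sets were called higher and 3 lower (5.7% each). Its median was -0.25, with 37 changes below 0. Splicing had 5 of 91 called lower (5.5%) and 2 higher (2.2%), both under the shares of all probe sets. The count lower was 8 without early stationary array 1 or with each array centred on its median.

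Metal transporters gave a few clear changes. The zinc uptake gene *zrt1* rose from 11.59, 12.45 and 11.73 to 13.69, 14.01 and 13.83 (change 1.92, SE 0.22, adjusted *p* = 1.93e-05) and *ctr6*, for the vacuolar copper transporter, from 10.72, 10.92 and 10.95 to 12.26, 12.45 and 12.40 (change 1.51, SE 0.18). *zrg17*, for a zinc transporter of the secretory pathway, had 10.24, 10.35 and 10.31 and then 8.09, 8.66 and 10.07 (change -1.36, SE 0.40), a call lost without early stationary array 1. In the iron list of 12 probe sets 1 was called higher and 1 lower, against 0 higher and 2 lower without early stationary array 3. Of genes in no list, the copper amine oxidase gene *cao2* rose from 8.50, 8.52 and 8.85 to 12.30, 11.61 and 12.09 (change 3.37, SE 0.36). In all, 719 probe sets lay in no list and 146 of them were called, 26.4% of the calls.

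The same change of phase was measured in the cells that overexpressed *rpl32-1* or *rpl32-2*, on arrays of their own. Their arrays also differed in set (1 to 5), by the distribution of deposited values. For *rpl32-1* no set held both phases, with log arrays in sets 1, 4 and 3 and early stationary arrays in 2, 5 and 5. For *rpl32-2* the sets were 5, 5 and 2 against 1, 4 and 2. Phase and set are therefore fully confounded in *rpl32-1* and partly in *rpl32-2* cells, and the comparisons of strains below share this limit. On *rpl32-1* log array 3, 18.7% of probe sets were at or below background. In *rpl32-1* cells 669 probe sets (22.8%) were called between the phases, and in *rpl32-2* cells 347 (11.8%). Of the 553 WT calls, 549 had the same sign in *rpl32-1* cells and 436 were also called there, and 535 had the same sign in *rpl32-2* cells with 242 also called. No WT call was called in the opposite direction in either strain. Over the 553 probe sets the median ratio of the strain's change to the WT change was 0.974 for *rpl32-1* and 0.675 for *rpl32-2*. These probe sets were chosen for the size of their WT change, so the ratios are a description. The difference in change between strain and WT, tested for each of the 2937 probe sets in limma, was called for 0 (0.0%) with *rpl32-1* and for 0 (0.0%) with *rpl32-2*, and 195 and 359 probe sets had an unadjusted *p* under 0.05. With array weights in limma the counts were 65 and 217, and for *rpl32-2* the count was 138 without its early stationary array 3. Side by side, *dak2* changed by 6.81 in WT, 5.24 in *rpl32-1* and 4.53 in *rpl32-2* cells, *atg13* by 1.97, 1.81 and 1.98, *dbp3* by -2.47, -2.47 and -2.35, *rrs1* by -1.59, -2.09 and -2.16, *erg6* by -1.82, -1.46 and -0.64, *gas1* by -1.62, -1.11 and -0.18 and *pho1* by -3.55, -3.20 and -1.39.

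**Figure D5:**
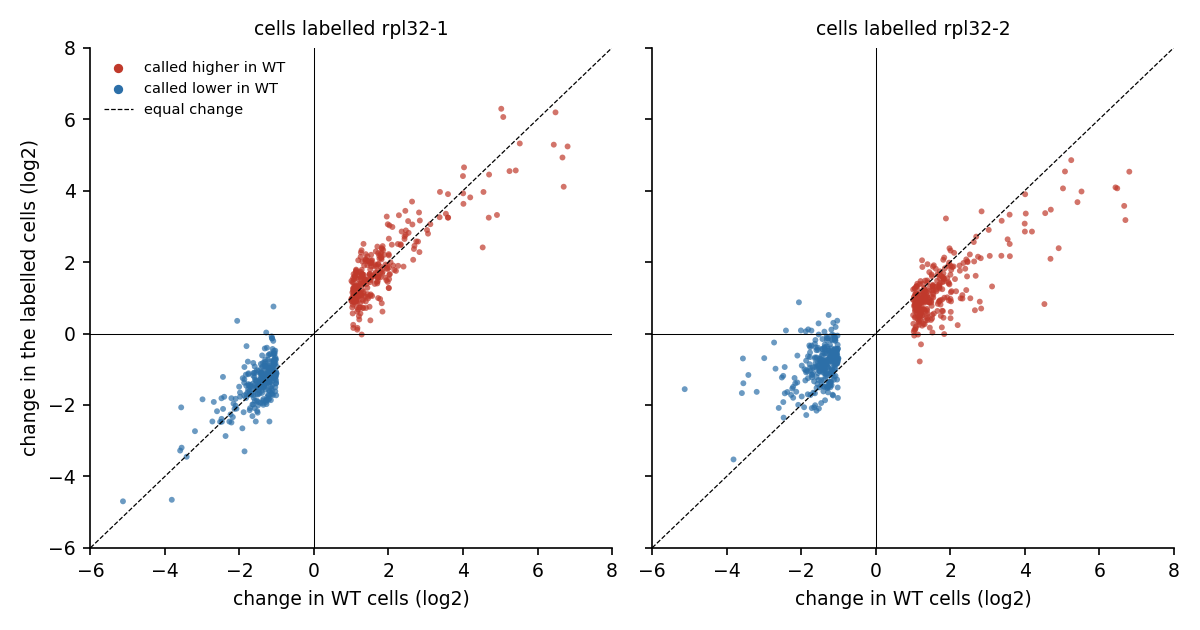
Phase change (log2, early stationary minus log phase) of the 553 probe sets called in WT cells (horizontal axis, red called higher and blue called lower) against the change in *rpl32-1* cells (left) and *rpl32-2* cells (right); the dashed line marks equal changes. Nearly all points keep the sign of the WT change, 549 on the left and 535 on the right, and on the right they lie nearer to 0, with a median ratio of 0.675.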

How the data were processed

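Each of the 18 Affymetrix yeast arrays measured total RNA of 1 strain, WT, *rpl32-1* or *rpl32-2*, in 1 phase, with 3 arrays a group. The log2 values of the 10928 probe sets were deposited by the authors and, per the labels, were made with Partek by the RMA method, and the arrays that shared a normalization are not given in the sources used here. From the distance between the distributions of deposited values (threshold 0.2) the 18 arrays fell into 5 sets, 3 of which held WT arrays. The authors' values were quantile-normalized over the 2937 probe sets that the platform annotation names as *S. pombe* genes (2917 of 1 gene, 20 of several, 2899 genes in all). Symbols of 109 were updated from RefSeq (assembly ASM294v3). Left out were 2601 *S. cerevisiae*, 213 control and 5177 unnamed probe sets. No 2 arrays held identical values and 0 columns lacked a sample.

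Group means of all 6 groups were fitted with limma 3.58.1 (R 4.3.3, statmod 1.5.0, 12 residual degrees of freedom), and *p*-values were adjusted by the Benjamini-Hochberg method over all 2937 probe sets. A call needed an adjusted *p* under 0.05 together with a 2-fold change. A probe set was above background on an array when its value exceeded the 95th percentile of the *S. cerevisiae* probe sets there. The labels call the replicates biological and the study's methods call them independent, without naming separate cultures, so *p*-values measure the spread between these arrays. Tables and plots were made with matplotlib 3.10.9, pandas 2.3.3, numpy 2.4.6 and scipy 1.17.1 under Python 3.11.15.

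The comparison, its members and the 80 gene lists were chosen with earlier results of these data known, so lists were described by counts and medians beside those of all probe sets, with no test of a list. Named genes were the 15 largest rises and the 15 largest falls without overlap between phases, up to 6 members of each list by adjusted *p* and all members of lists of at most 12, *rpl32-1*, *rpl32-2*, *act1*, *nmt1* and genes the study measured by QPCR. Another 39 genes were named after their values were seen: *adh4*, *arg4*, *arg5*, *atg22*, *atg4*, *atg8*, *cao2*, *cgs2*, *cox10*, *ctt1*, *dak1*, *egt1*, *gal1*, *gal7*, *gar1*, *git11*, *git3*, *his1*, *his3*, *his4*, *his5*, *isp4*, *liz1*, *lsd90*, *maf1*, *nda2*, *ntp1*, *pan6*, *ptc1*, *pyp1*, *pyp2*, *sre1*, *srk1*, *ssa1*, *ssa2*, *ste7*, *tps1*, *ura3* and *vht1*. The pairs of related genes were chosen in the same way.

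Alternatives were the values as deposited, median centring, quantile normalization over all probe sets of the array, the 6 WT arrays alone, dim probe sets left out, the replicate number or the set of arrays as a block, array weights, limma with a trend or robust, the methods' t-test, treat, no fold threshold, 1 value a gene and each array left out in turn. Changes within each set of arrays, and arrays of the other strains left out, were added after the data were seen.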

Additional observations from a re-analysis of the deposited data

How the results depend on the processing

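All 553 called probe sets kept their direction in the values as deposited, with median centring, with quantile normalization over all probe sets of the array, with the array set as a block and in the 6 WT arrays alone, but not all kept the call: 52, 486, 461, 491 and 514 were still called there. The counts were 24 higher and 29 lower in the values as deposited, 248 and 302 with median centring, 215 and 316 with quantile normalization over all probe sets, 295 and 270 with the sets as a block, 281 and 240 in the WT arrays alone and 296 and 271 with array weights. With no fold threshold 565 were higher and 724 lower, and with treat against 1.2-fold 355 and 402. The methods' t-test gave 273 and 237, and 239 and 185 after Benjamini-Hochberg adjustment. Without any 1 of the WT arrays the counts ranged from 268 to 319 higher and from 248 to 305 lower, and without any 1 of the other arrays from 279 to 290 and from 256 to 269. Inside the first set of arrays, 284 changed by 2-fold upwards and 271 downwards, and inside the second 269 and 199, without a test. The difference in phase change from WT was called for 65 probe sets with *rpl32-1* and 217 with *rpl32-2* under array weights, and it ranged from 0 to 0 and from 0 to 138 when single arrays were left out, 138 being the count without *rpl32-2* early stationary array 3.

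With the replicate number as a block 284 were higher and 268 lower, and 1 of 160 called genes named in the text lost its call. The numbers do not pair the arrays: the correlations of same-numbered WT arrays' deviations were 0.29, 0.13 and 0.04, and early stationary array 2 correlated best with log array 3.

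Signs turned only for genes that were not called. *act1* was 0.013 with median centring, 0.042 with the sets as a block, 0.17 with array weights and between -0.19 and 0.13 without single WT arrays, above 0 only without early stationary array 3. *rpl32-1* was 0.46 with median centring, and between -0.27 and 0.24 without single WT arrays, above 0 without early stationary array 1, early stationary array 2 or log array 3, and *rpl32-2* was 0.094 with median centring. *eno101* was 0.20 with median centring, *sxa1* -0.26 and *nmt1* -0.045 in the values as deposited, and *nmt1* -0.011 with quantile normalization over all probe sets. *map2*, at 0.77, was -0.0056 in the values as deposited, -0.035 with array weights, -0.26 with the sets as a block and between -0.39 and 1.41 without single WT arrays, below 0 without early stationary array 3. The cause of these changes was not tested. The 3 arrays a phase limit the precision, and 113 of the 267 falls rest in part on an early stationary array where the probe set was at background.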

Other observations

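Of the protein-coding genes measured on chromosome I, 130 of 1298 were called higher and 114 lower, on chromosome II 104 and 112 of 1100, and on chromosome III 41 and 39 of 492. Of 1695 pairs of genes next to each other in the RefSeq order with both members measured, 17 pairs had both members called higher, 13 had both called lower and 22 had calls in opposite directions, with no test of these counts. Of all 2937 probe sets 9.74% were called higher and 9.09% lower, and the number of such pairs expected at these shares was not computed. The counts therefore do not show that neighbours changed together. Among the pairs that were higher on both sides were *gal10* and *gal1* (changes 5.03 and 2.63), *pcm2* and *mel1* (4.53 and 4.69), *meu10* and *cbf12* (2.82 and 1.30) and *jmj1* and *atg101* (1.38 and 1.78). Among those that were lower on both sides were *slp1* and *eng1* (-1.19 and -3.42), *sda1* and *idi1* (-1.02 and -2.10) and *alg5* and *arg5* (-1.22 and -1.55). The pairs printed were chosen after their values were seen.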
